A study of Mus musculus with 6 samples.

Results

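Insulin-like growth factors (IGFs) reach their receptors through a family of secreted binding proteins. The RNA of 7 of these binding proteins, of the receptors IGF1R and INSR, and of IRS1, an adaptor that carries their signal, was followed here. The cells were mouse embryonic stem cells (ESCs) and the cells made from them with retinoic acid (RA). The 10 genes, chosen by name, were Igfbp1 to Igfbp7, Igf1r, Insr and Irs1, and each had 1 row among the 23235 rows of the deposited table. All samples were cultures of the mouse ESC line E14Tg2a in serum medium, taken between passages 37 and 40. The 3 ESC samples were kept with leukemia inhibitory factor (LIF), and the other 3 samples had been without LIF and in 1 μM RA for 48 h (2 days), which the study calls neuronal cells (NCs). Removal of LIF and addition of RA cannot be told apart in this design. The table gives 1 value per gene and condition, as FPKM, a count of sequenced fragments divided by transcript length and by the mapped fragments of the library, and holds no value of a single replicate. No SD, n or p-value is therefore given beside any value, no difference below was tested against the spread between replicates, and a 2-fold limit on the ratio of NC to ESC FPKM takes the place of a test.

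IGF binding proteins hold IGF1 and IGF2 outside the cell, lengthen their life and limit or deliver them to the receptor. IGF1R and INSR are related receptor tyrosine kinases that bind IGFs and insulin, and both phosphorylate insulin receptor substrates such as IRS1, which recruit PI3-kinase and lead to AKT. The same pathway sustains growth and survival of ESCs in culture and of neural progenitors.

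Marker genes were read first, to see what the labels stand for. Of 8 pluripotency markers, all 8 were at least 2-fold lower in NCs, and the highest of them, Dppa5a and Pou5f1, went from 3611.9 to 780.1 FPKM and from 832 to 37.1 FPKM. All 8 RA response markers were at least 2-fold higher, led in level by Crabp2 (18.3 FPKM in ESCs against 949.8 FPKM in NCs) and Stra8 (5.15 and 340.2 FPKM). Neural progenitor markers with a mean of at least 1 FPKM were higher in 5 of 6 cases, among them Pax6 (3.64 and 65.2 FPKM) and Sox3 (4.37 and 21.9 FPKM). Neuron markers went the other way in 4 of 6 cases, with Tubb3 at 33.4 FPKM in ESCs against 7.54 FPKM in NCs and Neurod1 at 10.1 and 0.259 FPKM. When both conditions had to reach 1 FPKM, Tubb3 alone was lower and no neuron marker was higher. The other lower ones had passed the mean through their ESC values. Under that filter 5 RA response and 4 neural progenitor markers were higher. The label of neuronal cells is used below only as a name. The sum of all FPKM was 770592 in ESCs and 628679 in NCs. Depth per sample is unknown. The lowest values gathered around certain sizes, which were read as the worth of 1 fragment per kilobase: 0.0119 and 0.0137 FPKM for ESCs, with 24.2% and 36.3% of 190 low values, and 0.00710 and 0.0135 FPKM for NCs, with 44.9% and 18.9% of 254. Since the remaining low values lay elsewhere, fragment numbers below are rough, and are given at the larger and the smaller size.

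Igfbp5 and Igfbp4 among the binding proteins, and Irs1 among the other genes, were at least 2-fold higher in NCs, while Igfbp2 was the most abundant of the 10 genes in both conditions and differed by 1.16-fold. None of the 10 genes was 2-fold lower. In bulk samples such as these, a different number of cells of a type and a different amount of RNA per cell cannot be told apart. A mean of at least 1 FPKM over both conditions was reached by 8 of the 10 genes, and 3 of these 8 were called higher. Among all 12784 genes with such a mean, 11.1% were at least 2-fold higher and 9.93% at least 2-fold lower in NCs. The 3 genes are 37.5% of the 8, a share that a single gene moves by much. Irs1 reached the mean of 1 FPKM only through its NC value. When both conditions had to reach 1 FPKM, 2 of 7 genes were called higher, beside 7.45% of all genes. The median log2 ratio of the 8 genes was 0.46, against -0.04 for all 12784 genes. Igfbp1 and Igfbp6 lay under that mean and are described by their values alone.

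**Figure D1:**
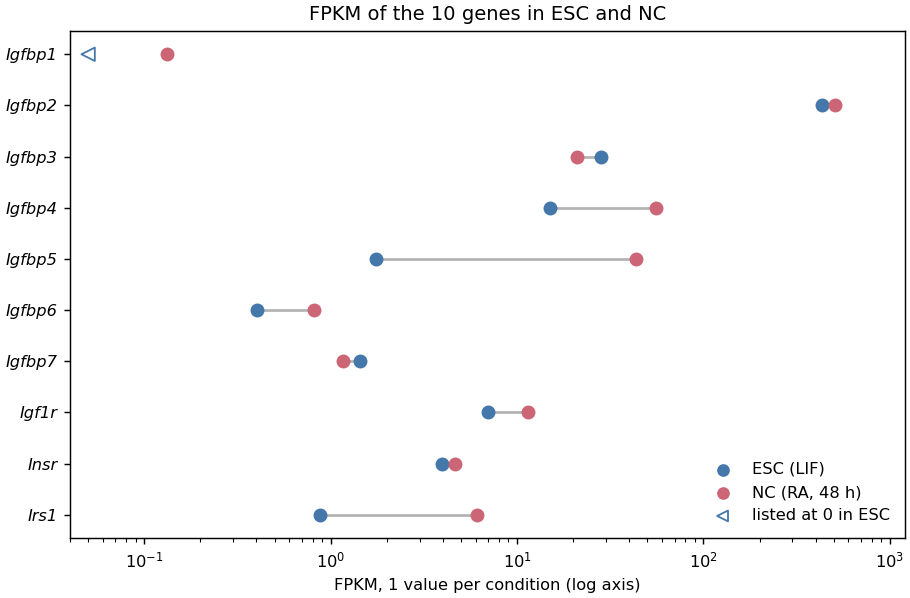
FPKM of the 10 genes on a log axis, with 1 point for ESCs (blue) and 1 for NCs (red) joined by a grey line. The longest line belongs to Igfbp5, from 1.76 to 43.6 FPKM, and the open triangle marks Igfbp1, which is listed at 0 in ESCs.

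Igfbp5 (chromosome 1, 72857932 to 72874884 on the minus strand, build GRCm38) encodes a binding protein that also attaches to extracellular matrix. It had 1.76 FPKM in ESCs against 43.6 FPKM in NCs, a 24.8-fold higher value and a log2 ratio of 4.63. Its log2 ratio stood at place 132 of the 12784. The ESC value corresponds to roughly 744 to 857 fragments. Igfbp4 (chromosome 11, 99041244 to 99054392, plus strand), whose product mostly inhibits IGF action until it is cut by the protease PAPP-A, had 15.1 FPKM in ESCs against 55.4 FPKM in NCs. This is 3.67-fold higher, a log2 ratio of 1.88. In ESCs Igfbp4 was 8.59 times as high as Igfbp5, and in NCs 1.27 times as high, so these genes came close to a common level from very different ones.

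Igfbp2 (chromosome 1, 72824503 to 72852474, plus strand), a major binding protein of fetal tissues, had 435 FPKM in ESCs against 506 FPKM in NCs. These values put it at place 218 of 23235 rows in ESCs and at place 171 in NCs. Igfbp3 (chromosome 11, 7206086 to 7213923, minus strand), the main IGF carrier of adult serum, had 28.3 FPKM in ESCs against 20.9 FPKM in NCs, 1.36-fold lower, which is short of the limit. It was 16.1 times as high as Igfbp5 in ESCs and 0.479 times as high in NCs. Igfbp3 was second among the binding proteins in ESCs, ahead of Igfbp4, Igfbp5, Igfbp7, Igfbp6 and Igfbp1. In NCs the order behind Igfbp2 was Igfbp4, Igfbp5, Igfbp3, Igfbp7, Igfbp6 and Igfbp1. Whether neighbours in these orders differ beyond their spread cannot be said without replicate values.

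The remaining binding proteins were low in both conditions. Igfbp7 (chromosome 5, 77349240 to 77408041, minus strand), a more distant relative with low affinity for IGFs, had 1.43 FPKM in ESCs against 1.16 FPKM in NCs. One of its exons overlaps an exon of Polr2b on the opposite strand, which had 59.3 and 53.1 FPKM, and 2.99% of its 50-base words occur in another gene. The sources do not say that fragments were assigned by strand, so some of the Igfbp7 value may belong to Polr2b. Igfbp6 (chromosome 15, 102144362 to 102149511, plus strand), which prefers IGF2, had 0.401 FPKM in ESCs against 0.817 FPKM in NCs. These are roughly 27 to 31 fragments in ESCs, and 55 to 105 in NCs. The 2.04-fold difference came to a log2 ratio of 0.37 when 1 FPKM was added to both values. Igfbp1 (chromosome 11, 7197782 to 7202546, plus strand), a binding protein of liver and decidua that insulin keeps low, was listed at 0 in ESCs and had 0.133 FPKM in NCs, roughly 13 to 25 fragments. A count of 0 allows up to 3 fragments, which is 0.0310 FPKM for Igfbp1 in ESCs and covers counting error only.

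Summed over the 7 genes, which FPKM allows because it is per length, binding protein RNA had 482 FPKM in ESCs against 628 FPKM in NCs, a 1.30-fold higher sum. Igfbp2 made up 90.3% of the sum in ESCs and 80.6% in NCs. Igfbp5 went from 0.364% to 6.94% of the sum, Igfbp4 from 3.13% to 8.82% and Igfbp3 from 5.87% to 3.32%. Without Igfbp2, the other 6 genes summed to 47.0 FPKM in ESCs against 122 FPKM in NCs, which is 2.60-fold higher.

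**Figure D2:**
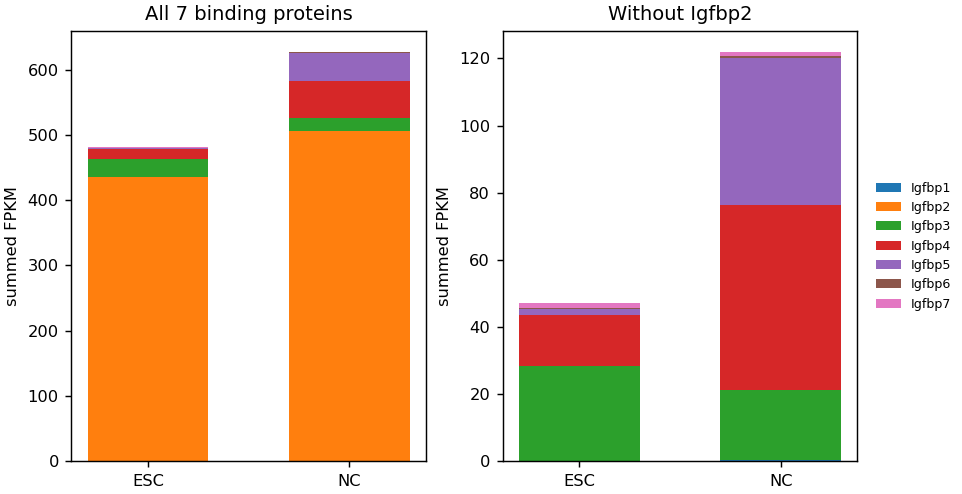
Summed FPKM of the binding protein genes in ESCs and NCs as stacked bars from 0, with 1 colour per gene. The left panel holds all 7 genes and is filled mostly by Igfbp2, and the right panel leaves Igfbp2 out, where the sum goes from 47.0 to 122 FPKM and Igfbp3, the largest part in ESCs, is smaller than Igfbp4 and Igfbp5 in NCs.

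Some of these genes lie side by side in the genome. Igfbp2 and Igfbp5 are neighbours on chromosome 1 with their 3′ ends facing each other, 5457 bases apart, and their log2 ratios were 0.22 and 4.63. The other pair, Igfbp1 and Igfbp3, also faces tail to tail on chromosome 11, with 3539 bases between them. There Igfbp3 had 20.9 FPKM or more in both conditions and Igfbp1 0.133 FPKM or less. No 50-base word of the transcripts is shared between any of the 10 genes, so fragments of one family member could not be counted for another on the strength of such words.

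The start regions of the 3 genes that were called higher are shown, with that of Igfbp2 as the abundant neighbour of Igfbp5, because the comparison turns on these genes. Each is the 250 bases before the first RefSeq start, on build GRCm38.p6, 5′ to 3′ on the strand of the gene. Capitals mark the motifs searched for. The windows are chr1:72874866-72875115 (minus strand) for Igfbp5, chr11:99040994-99041243 (plus strand) for Igfbp4, chr1:82291440-82291689 (minus strand) for Irs1 and chr1:72824230-72824479 (plus strand) for Igfbp2.
Igfbp5: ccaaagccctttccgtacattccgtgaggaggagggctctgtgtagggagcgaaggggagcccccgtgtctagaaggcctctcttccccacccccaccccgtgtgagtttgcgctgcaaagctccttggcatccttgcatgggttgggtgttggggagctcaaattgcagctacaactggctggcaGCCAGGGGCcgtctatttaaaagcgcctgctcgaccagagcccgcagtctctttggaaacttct
Igfbp4: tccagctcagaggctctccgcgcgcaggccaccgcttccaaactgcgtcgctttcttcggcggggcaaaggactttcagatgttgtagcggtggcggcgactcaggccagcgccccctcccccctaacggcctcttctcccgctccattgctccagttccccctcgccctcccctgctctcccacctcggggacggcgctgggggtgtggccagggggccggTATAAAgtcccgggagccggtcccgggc
Irs1: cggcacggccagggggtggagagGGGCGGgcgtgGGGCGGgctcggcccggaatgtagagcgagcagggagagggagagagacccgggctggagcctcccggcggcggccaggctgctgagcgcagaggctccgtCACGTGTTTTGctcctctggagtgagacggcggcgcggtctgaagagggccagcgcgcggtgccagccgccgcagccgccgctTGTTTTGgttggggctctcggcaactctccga
Igfbp2: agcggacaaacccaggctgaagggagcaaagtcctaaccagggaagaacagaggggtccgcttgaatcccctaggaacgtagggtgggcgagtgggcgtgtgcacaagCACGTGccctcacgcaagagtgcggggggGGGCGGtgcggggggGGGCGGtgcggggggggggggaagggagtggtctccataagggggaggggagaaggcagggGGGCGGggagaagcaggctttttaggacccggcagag

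RefSeq windows of 300 bases, 250 before and 50 after each start, were at hand for 9 of the 10 genes, in 10 windows, and not for Insr. Both strands were searched. The windows of Igf1r and Igfbp6 end at 67952306 and 102144235, before the GENCODE gene starts given in this report, 67952827 and 102144362. What is found in these windows therefore belongs to the RefSeq starts and not to the printed gene starts. The retinoic acid receptor half-site AGGTCA, held by 16.3% of all 32851 windows, was found in Igf1r alone, and its variant AGTTCA (14.0% of all) in none of the 10 windows. Pairs of these half-sites in 1 direction with 1, 2 or 5 bases between them, 12 combinations in all, were in none of the 10 windows and in at most 0.0396% of all windows each. Igfbp4 has the letters TATAAA (13.6% of all windows) starting 28 bases before its start, and Igfbp6 has them in the other direction. Igfbp5 has the AP-2 letters GCCNNNGGC (16.6% of all) starting 64 bases before it. The GC box GGGCGG (35.7% of all) was in Igf1r, Igfbp2, Igfbp7 and Irs1, and the E-box CACGTG (7.15% of all) in Igfbp2 and Irs1. The windows of 8 of the 9 genes had more G and C than the median over all windows, 52.7%. They ran from 54.3% for Igfbp1 to 76.0% for Igf1r, and the exception was Igfbp6 with 49.7%. A match here describes letters only.

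Igfbp1 has long served to study how insulin lowers transcription through FoxO factors, and the letters CAAAACA of its insulin response element were found in its window, as in 6.28% of all windows. Irs1 held the same letters at a pair of places, in the other direction, and the one farther from the start shares 2 bases with the E-box. The other FoxO letters searched for, GTAAACA, were in none of the 10 windows and in 3.65% of all. The 30 bases around each match are given, with the match in capitals, for Igfbp1 at chr11:7197668-7197697 (plus strand) and for Irs1 at chr1:82291532-82291561 and chr1:82291453-82291482 (minus strand).
Igfbp1: gagctcacaagCAAAACAaacttattttga
Irs1, far: gctccgtcacgTGTTTTGctcctctggagt
Irs1, near: cagccgccgctTGTTTTGgttggggctctc

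Of the receptors, Igf1r (chromosome 7, 67952827 to 68233668, plus strand) had 7.01 FPKM in ESCs against 11.4 FPKM in NCs, 1.62-fold higher and within the limit. Insr (chromosome 8, 3122061 to 3279617, minus strand) had 3.98 FPKM in ESCs against 4.65 FPKM in NCs. Igf1r stood above Insr in both conditions, 1.76 times as high in ESCs and 2.44 times as high in NCs. Their ratios lay inside the range of most genes, with 83.4% of the 12784 genes below the log2 ratio of Igf1r and 66.4% below that of Insr.

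Irs1 (chromosome 1, 82233101 to 82291416, minus strand) had 0.880 FPKM in ESCs against 6.13 FPKM in NCs, a 6.96-fold higher value with a log2 ratio of 2.80. It was the lowest in ESCs of the 3 genes called higher, at roughly 575 to 662 fragments. Irs1 has a mean over 1 FPKM only through its NC value, and with 1 FPKM added to both values its log2 ratio was 1.92. An annotated gene on the opposite strand, Gm9747, overlaps its exons. Of the Irs1 words, 30.5% occur in other genes, and Gm9747 shares more of them than any other gene does. Gm9747 has no row under that name, and fragments of either gene cannot be told apart where strand was not used.

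**Figure D3:**
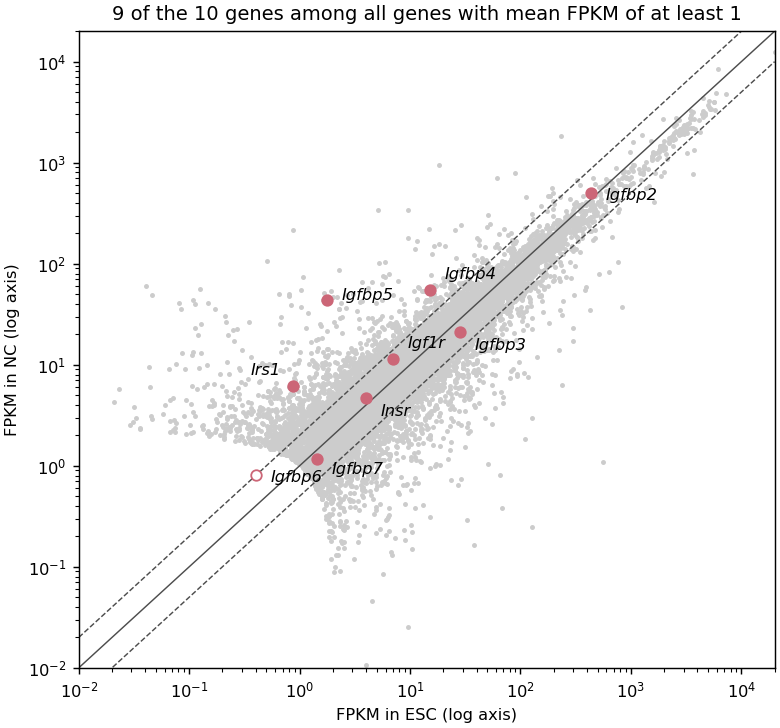
FPKM in NCs against FPKM in ESCs, both on log axes, for genes with a mean of at least 1 FPKM (grey, 12714 of 12784, the other 70 lie outside the axes), with the line of equal values and dashed lines at 2-fold. Filled red points are the 8 genes with such a mean, of which Igfbp4, Igfbp5 and Irs1 lie above the upper dashed line, and the open point is Igfbp6. Igfbp1 is not drawn because it is listed at 0 in ESCs.

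The rest of the insulin and IGF pathway was described with 7 lists of 68 genes, all with a row. Of the 49 with a mean of at least 1 FPKM, 10 were at least 2-fold higher and 2 at least 2-fold lower in NCs (20.4% and 4.08%, beside 11.1% and 9.93% of all genes), with a median log2 ratio of 0.04. When both conditions had to reach 1 FPKM, Dok5 and Kazald1 were no longer called higher and Klk1 no longer lower. Of all genes, 7.45% were higher and 7.89% lower under that filter. Igf2 (chromosome 7, 142650766 to 142666816), the fetal IGF and an imprinted gene, had 6.97 FPKM in ESCs against 48.6 FPKM in NCs, 6.98-fold higher. Igf1 had 0.291 and 0.408 FPKM, and Igf2 was 24.0 times as high as Igf1 in ESCs and 119 times as high in NCs. Ins1 and Ins2, the insulin genes, were listed at 0 in ESCs and had 0.00874 and 0.320 FPKM in NCs.

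Igf2r (chromosome 17, 12682406 to 12769664), which takes up IGF2 for degradation and is imprinted as well, had 24.0 FPKM in ESCs against 14.7 FPKM in NCs, 1.63-fold lower and short of the limit. It was 3.42 times as high as Igf1r in ESCs and 1.29 times as high in NCs. Insrr, an insulin receptor relative that senses alkaline medium, had 0.104 and 0.245 FPKM. H19, the imprinted noncoding RNA gene beside Igf2, had 112 FPKM in ESCs against 453 FPKM in NCs. The mRNA binding protein genes Igf2bp1 (44.4 and 105 FPKM) and Igf2bp3 (27.8 and 64.4 FPKM) were also over 2-fold higher, and Igf2bp2 was within the limit.

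Of the receptor substrates and adaptors outside Irs1, 3 of 10 were at least 2-fold higher and none lower, with a median log2 ratio of 0.40. Irs2, the other widely expressed substrate, had 7.13 FPKM in ESCs against 24.8 FPKM in NCs, 3.48-fold higher. It was 8.09 times as high as Irs1 in ESCs and 4.04 times as high in NCs. Grb10, an imprinted adaptor that restrains both receptors, had 8.84 and 39.5 FPKM, and Dok5 0.884 and 3.58 FPKM. The genes of PI3-kinase, AKT, FoxO and TOR signaling included 2 of 25 at least 2-fold higher and none lower, with a median log2 ratio of -0.05. These were Pik3r3, a regulatory subunit of PI3-kinase, with 1.43 and 4.74 FPKM, and Akt1, which is just past the limit, with 29.5 and 60.6 FPKM.

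Among proteases, inhibitors and partners that act on the binding proteins, 2 of 4 genes with a mean of at least 1 FPKM were lower. The other 8 of the 12 listed genes lay under that mean. Stc2, which encodes an inhibitor of the PAPP-A proteases, had 8.70 FPKM in ESCs against 1.89 FPKM in NCs, 4.59-fold lower. Klk1, a kallikrein gene, had 3.98 FPKM in ESCs and was at least 74.1-fold lower in NCs, where its value lay under 3 fragments (0.0537 FPKM). Kazald1 was the gene past the limit of 4 IGFBP-related and CCN genes with such a mean. It had 0.548 and 1.97 FPKM, and it was within the limit when 1 FPKM was added.

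**Figure D4:**
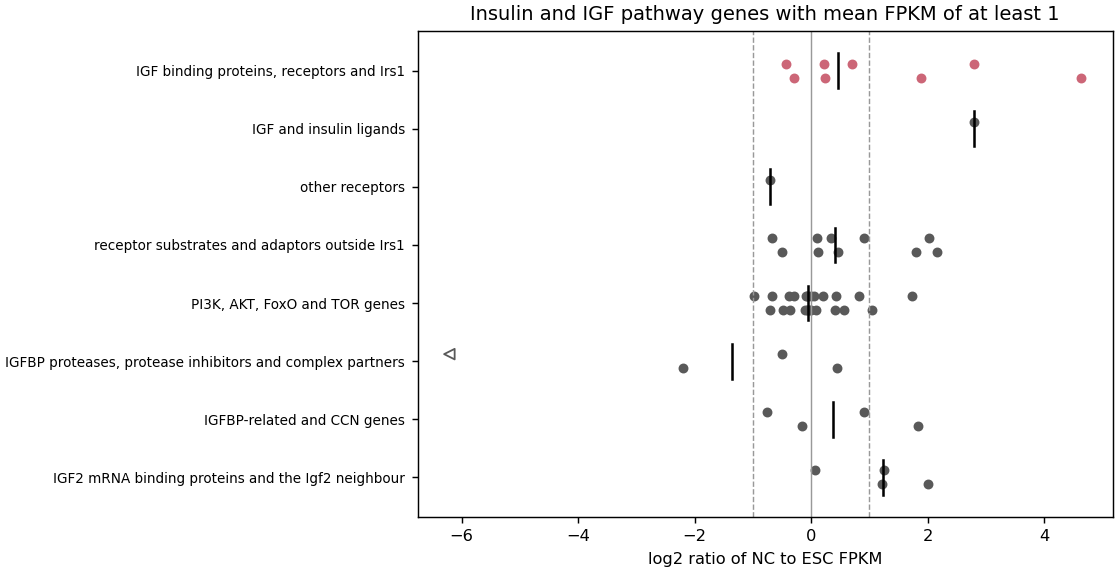
log2 ratio of NC to ESC FPKM for the 8 genes with a mean of at least 1 FPKM (red) and for the 7 pathway lists (grey), 1 point per gene, with black bars at the medians and dashed lines at 2-fold. Igfbp5 is the farthest point on the right at 4.63, most of the 25 PI3-kinase, AKT, FoxO and TOR genes lie between the dashed lines, and the open triangle is the bound for Klk1.

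Binding proteins are also made by mesenchymal and endodermal cells, and markers of both were measured beside them. Of 8 fibroblast and mesenchyme markers with a mean of at least 1 FPKM, 5 were at least 2-fold higher in NCs and 1 lower, and the sum over all 9 went from 34.8 to 60.7 FPKM. With at least 1 FPKM asked of both conditions, 2 were higher and 1 lower, since Col3a1, Pdgfra and Dcn reached that mean through their NC values. Thy1, the lower one, had 9.64 and 1.80 FPKM. Col1a2 had 3.47 and 23.3 FPKM and Col1a1 5.78 and 13.0 FPKM, while Lum was listed at 0 in ESCs and had 0.0691 FPKM in NCs. Of 10 markers of primitive and parietal endoderm, 6 were higher and none lower, and the sum over all 12 went from 251 to 369.5 FPKM. When both conditions had to reach 1 FPKM, 4 were higher and none lower, the others having passed the mean through their NC values. Sparc (142 and 181 FPKM) and Col4a1 (23.5 and 51.8 FPKM) were high in both conditions, and the lowest marker of this list had 0.0161 and 0.0871 FPKM. Mesoderm markers were low, at 1.61 FPKM or less in ESCs and 1.05 FPKM or less in NCs. The part of such cells in the values of Igfbp4, Igfbp5 and Irs1 was not tested.

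Adding a pseudocount or rescaling the columns left Igfbp4, Igfbp5 and Irs1 past the 2-fold limit. When both columns were scaled to the same sum, every log2 ratio moved up by 0.29, the share of higher calls among all calls went from 52.8% to 70.8%, and the log2 ratio was -0.15 for Igfbp3, -0.01 for Igfbp7 and 0.99 for Igf1r. Igfbp3 and Igfbp7 stayed below 0 under these 5 alternatives, but Igfbp7 by so little that no direction is drawn for it.

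**Figure D5:**
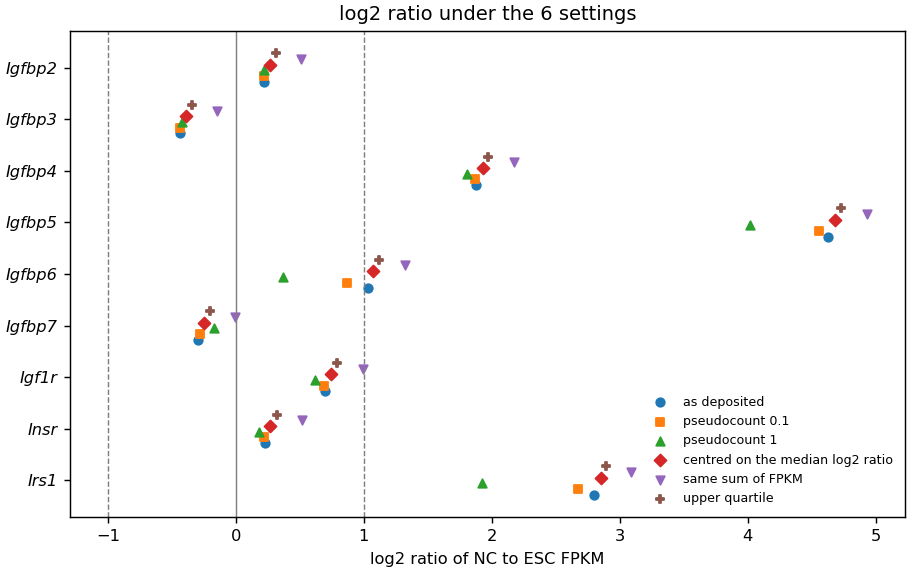
log2 ratio of NC to ESC FPKM for the 9 genes with a value above 0 in both conditions, computed from the FPKM as deposited and under 5 alternatives, with dashed lines at 2-fold. A pseudocount of 1 moves Irs1 to 1.92 and Igfbp5 to 4.02, both still to the right of the limit, and Igfbp6 to 0.37, short of it.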

How the data were processed

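RNA was sequenced from 3 ESC and 3 NC samples, each from 2 plates of 60 mm as TruSeq libraries on an Illumina instrument. Per the labels and the study's methods, the authors mapped the reads to mm10 (TopHat2 2.0.8 with Bowtie2 2.1.0) and ran Cufflinks 2.0.2, Cuffmerge and Cuffdiff. The authors deposited the result as FPKM, 1 value per gene and condition estimated by Cuffdiff over the replicates. The heading of the NC column reads FPK and was taken as FPKM. The deposited table also holds the fold change, test statistic and p- and q-values of the authors' own comparison, which were not used here.

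The ratio of NC to ESC FPKM was computed without a pseudocount and called at 2-fold among genes with a mean of at least 1 FPKM. No fold was given where both values were under 0.1 FPKM. The size of 1 fragment was read from low values of genes with 1 annotated transcript, with fragments of 200 bases, a step chosen after the data were seen. It covers counting error only. Positions, exon overlaps and 50-base words came from GENCODE M21 on GRCm38, the assembly of mm10, and start regions from RefSeq (GRCm38.p6). The genes named were the 10 members, all ligands and receptors, and up to 3 rises and 3 falls past the limit in each other list. The 2 highest markers of each list were named as well. Polr2b, Gm9747, Lum, Thy1, Col3a1, Pdgfra, Dcn, Igf2bp2, Pappa and Pappa2 are named outside this rule where a result touches them. The members and lists were chosen with earlier results of these data known. Protein sequences planned for the comparison of family members were not analysed here. The calls were tested on simulated data. Planted differences there lay past the limit, so this checks the calculation and not the spread between replicates. Alternatives were pseudocounts of 0.1 and 1 FPKM, centring, equal sums, the upper quartile, other filters and fold limits of 1.5 and 4. Python 3.11.15, numpy 2.4.6, pandas 2.3.3 and matplotlib 3.10.9 were used.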

Additional observations from a re-analysis of the deposited data

How the results depend on the processing

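The table holds no value per replicate, so leaving out a replicate was not run, no error can be set beside any value, and depth per sample is unknown, with the fewest estimated fragments behind Igfbp1, Igfbp6 and Igfbp7. No paired analysis was possible because the columns carry no replicate numbers. Igfbp4, Igfbp5 and Irs1 were called higher in NCs under both pseudocounts, centring, equal sums and the upper quartile. Without a filter on low values, 5 of the 10 genes were called, Igfbp1 and Igfbp6 being added, and with at least 1 FPKM asked of both conditions 2 were called, Irs1 being lost. A limit of 4-fold left Igfbp5 and Irs1, and a limit of 1.5-fold added Igf1r. No gene of the 10 was called lower under any of these. The median log2 ratio of the 8 genes ran from 0.42 with a pseudocount of 1 to 0.75 with equal sums. Of 45 log2 ratios of single genes under the alternatives, 41 stayed on their side of the limit and within 1.5-fold, none changed sign past the limit, and 4 moved more (Igfbp5, Irs1 and Igfbp6, by a pseudocount). Centring, equal sums and the upper quartile each shift every gene by the same amount, under 1.5-fold, so only the pseudocounts could move a gene further.

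Over all genes, 2689 were called, 1419 higher and 1270 lower. Without a filter the counts were 6741, 3861 and 2880, with a limit of 1.5-fold 4871, 2471 and 2400, and with a limit of 4-fold 963, 537 and 426. With at least 1 FPKM in both conditions 873 were higher and 924 lower, so that 48.6% of calls were higher, against 52.8% with the mean filter. Of 252 counts over the pathway and marker lists, 222 stayed within 1.5 times.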

Other observations

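The CCN genes, once counted as relatives of the IGF binding proteins and known for matrix and Hippo signaling, held some of the higher values among the genes around this family. Ctgf had 53.6 FPKM in ESCs against 31.7 FPKM in NCs, and Cyr61 had 27.8 and 51.7 FPKM. Both were within 2-fold, in opposite directions, and Cyr61 passed the limit when the columns were scaled to the same sum. Nov, Wisp1, Wisp2 and Wisp3 had at most 0.317 FPKM in either condition. Igfbpl1 had 2.85 and 2.56 FPKM. Of these genes, all but Kazald1 are named after their values were seen.

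Genes next to the members, also chosen after the values were seen, are given by their values. Igfbp4 lies between Top2a, which had 265 FPKM in ESCs against 156 FPKM in NCs, and Tns4, which had 1.16 and 0.444 FPKM, the latter with a mean under 1 FPKM. Pgpep1l, 2941 bases beyond Igf1r, had 0.490 and 0.152 FPKM. Rhbdd1, the next protein-coding gene, 25035 bases from the start of Irs1, had 6.91 and 6.21 FPKM.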
